A study of Mus musculus with 16 samples.

Results

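Interferon-stimulated genes are the genes that a cell switches on when interferon reaches it. Here 49 such genes, fixed as a list by symbol, were followed in splenic CD4+ T cells of mice, and a gene was tested in a subset where its mean over the 8 libraries was at least 5 normalised counts. By this rule 48 of the 49 were tested in CD25- CD4+ cells, among 10426 genes tested there, and 47 in CD25+ regulatory T cells, among 11051. The tables list 47643 gene identifiers. The genes were placed in 2 classes. The type I-like class holds 40 genes, typical targets of type I interferon, and the class of GTPase or antigen-processing genes holds 9, namely Irf1, Nlrc5, Ifi47, Irgm1, Igtp, Gbp2, Gbp7, Psmb8 and Psmb9. Oas1a, an oligoadenylate synthetase, was below the filter in both subsets (at most 1.22 normalised counts in a CD4 library and 3.26 in a Treg library), and Ifi44 was below it in Treg only (at most 1.66).

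The mice were TRaGS animals, in which thyroid hormone receptor alpha can no longer bind DNA, and their wild-type littermates (TRaWT), 4 of each. The labels give neither age nor sex, and name no treatment of the mice. From each spleen, CD4+ cells were enriched on magnetic beads and sorted into a CD25- fraction, labelled naive and called CD4 here, and a CD25+ fraction, called Treg, so that 8 mice gave 16 libraries. The receptor is altered in every cell of these mice and not in T cells alone, so an effect within the T cell and one from other tissues cannot be told apart. Reads came from the 3′ ends of transcripts, away from the altered part of Thra, so the counts do not check the genotype. A library held 2679119 to 5095278 reads in CD4 and 2912038 to 4154027 in Treg. The 6 CD4 T cell markers (Cd3e, Cd3d, Cd4, Trac, Lck and Cd5) were detected in both subsets, and Foxp3, the defining factor of Treg, stood at 893 to 1330 normalised counts in Treg libraries and at 43.1 to 170 in CD4 libraries. The 2 tables were normalised separately, so each test of genotype was made within a subset. Differences are given as log2 TRaGS minus TRaWT on log2(value + 1), with the SE of limma's moderated fit and p adjusted by Benjamini-Hochberg over all genes tested. A gene is called where the adjusted p is under 0.05.

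Type I interferons signal through IFNAR1 and IFNAR2 and the kinases JAK1 and TYK2 to a complex that contains STAT2 and IRF9 and binds the interferon-stimulated response element (ISRE) in target promoters. Interferon gamma signals through IFNGR1 and IFNGR2 to the gamma-activated site (GAS) and induces IRF1, which in turn raises many GTPases and antigen-processing genes. The programmes overlap, and T cells in an uninfected spleen keep a low, tonic expression of many of these genes.

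Promoters of 300 bases, from 250 before to 50 after the gene start, were available from RefSeq (GRCm38.p6) for 39 of the 49 genes. Usp18, Mx1, Mx2, Rtp4, Ifi27l2a, Zbp1, Parp9, Parp14, Dhx58 and Nlrc5 had no entry. The ISRE core, spelled GAAA, any 2 bases and GAAA again and searched on both strands, was found in the promoters of 19 of the 39 genes (48.7%), against 3.99% of the 27025 genes in the table. It was found for 15 of 31 type I-like genes and for 4 of 8 genes of the other class. The GAS motif TTCNNNGAA, which reads alike on both strands, was found for 11 of 39 (28.2%) against 9.55% of all genes, with 7 of 31 type I-like and 4 of 8 other genes. A match describes these letters and is not a binding site.

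The promoters shown are those of the type I-like genes with the smallest p over the subsets, Ifi213 and Pml, and of the other class, Gbp7 and Psmb9, read 5′ to 3′ on the strand of the gene with motif matches in capitals. Ifi213, Pml and Psmb9 lie on the minus strand and Gbp7 on the plus strand. Ifi213 (chr1:173599223-173599522) holds 1 ISRE core, Gbp7 (chr3:142530086-142530385) holds 1 ISRE core on its opposite strand and 2 GAS motifs, and Pml (chr9:58249737-58250036) and Psmb9 (chr17:34187281-34187580) hold neither motif in this window.
Ifi213: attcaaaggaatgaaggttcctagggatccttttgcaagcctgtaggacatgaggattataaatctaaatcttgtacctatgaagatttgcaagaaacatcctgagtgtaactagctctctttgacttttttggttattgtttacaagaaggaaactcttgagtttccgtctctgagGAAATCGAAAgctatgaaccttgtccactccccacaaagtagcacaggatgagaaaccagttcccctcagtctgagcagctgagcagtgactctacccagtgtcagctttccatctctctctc
Gbp7: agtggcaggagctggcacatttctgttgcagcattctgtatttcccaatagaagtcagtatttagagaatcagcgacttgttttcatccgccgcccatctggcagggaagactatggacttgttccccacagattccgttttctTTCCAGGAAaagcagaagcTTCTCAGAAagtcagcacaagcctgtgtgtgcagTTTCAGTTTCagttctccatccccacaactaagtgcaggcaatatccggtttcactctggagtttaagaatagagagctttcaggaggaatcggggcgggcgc
Pml: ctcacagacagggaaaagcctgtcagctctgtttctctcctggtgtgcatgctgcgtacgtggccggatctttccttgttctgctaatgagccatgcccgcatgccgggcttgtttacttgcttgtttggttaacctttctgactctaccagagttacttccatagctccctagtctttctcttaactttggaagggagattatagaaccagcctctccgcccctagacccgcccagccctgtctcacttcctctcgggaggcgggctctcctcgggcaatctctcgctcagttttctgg
Psmb9: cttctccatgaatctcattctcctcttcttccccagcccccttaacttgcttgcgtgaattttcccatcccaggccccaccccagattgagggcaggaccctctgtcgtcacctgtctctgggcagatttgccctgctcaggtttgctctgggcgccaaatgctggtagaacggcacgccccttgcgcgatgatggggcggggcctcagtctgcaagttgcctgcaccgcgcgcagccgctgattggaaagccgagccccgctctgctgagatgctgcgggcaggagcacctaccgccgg

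The 3 genes of the PYHIN family on the list, which encode DNA-binding proteins of the interferon-inducible p200 group, carry the same 10-base core, shown in capitals with its flanks because only 1 of the 3 passed the test below. Ifit3 and Ifit3b, near-identical copies, have identical windows around their first core. Isg15 has 3 matches. Only the first is in capitals, and another in the same window, which overlaps its end, is left unmarked.
Ifi203: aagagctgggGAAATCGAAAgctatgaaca
Ifi206: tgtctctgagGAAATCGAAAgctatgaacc
Ifi213: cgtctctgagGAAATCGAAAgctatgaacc
Ifit3: cagtggtaagTTTCACTTTCctcttctggt
Ifit3b: cagtggtaagTTTCACTTTCctcttctggt
Isg15: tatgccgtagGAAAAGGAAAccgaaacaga

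In CD4 cells most of the genes leaned lower in TRaGS mice, and none was called. The log2 difference was negative for 40 of 48, against 50.7% of all genes tested, with a median of -0.37 beside -0.01 over all genes. By limma 0 of 48 were called, where 0.0575% of all genes were (6 genes, none of them lower). At an unadjusted p under 0.05, 3 were lower (Isg15, Phf11b and Xaf1) and 0 higher, where 2.47% and 2.7% of all genes were. edgeR and DESeq2 on the recovered reads also called 0. In this table limma gave every gene the variance of the trend at its level, so the SE and p do not measure a single gene's own spread between mice.

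In the ISG15 conjugation system, Isg15 and Usp18 stood lower in TRaGS CD4 cells without overlap, and Herc6 and Trim25 overlapped. Isg15 (chromosome 4, 156199424 to 156200818, GRCm38), a ubiquitin-like protein joined to other proteins after interferon, had 36.3, 162.9, 40.3 and 104.9 normalised counts in the TRaWT mice 1 to 4 and 3.91, 7.07, 22.6 and 22.9 in the TRaGS mice 1 to 4. All TRaGS libraries lay below all TRaWT libraries. The difference was -2.56 ± 1.01 (adjusted p = 0.943). Usp18 (chromosome 6, 121245906 to 121270917), which removes ISG15 and restrains the type I receptor, had 68.6, 43.4, 27.2 and 34.1 in TRaWT and 19.6, 1.41, 22.6 and 4.58 in TRaGS. Its genotypes did not overlap either, with a difference of -2.22 ± 1.17 (adjusted p = 0.947). These were the only genes of the list without overlap, 2 of 48 lower and 0 higher, where 1.73% of all genes were lower without overlap and 1.43% higher. Herc6, the mouse ligase for ISG15, and Trim25, an E3 ligase of RIG-I signalling, differed by -0.48 ± 0.53 and 0.25 ± 0.41.

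Xaf1, Phf11b and Rtp4 had low unadjusted p values in CD4 cells while their genotypes overlapped. Xaf1, an interferon-induced binding partner of XIAP, had 86.4, 120, 237 and 252 normalised counts in TRaWT and 43.0, 81.3, 45.1 and 89.4 in TRaGS. The TRaGS values lay in and below the lower part of the TRaWT range (-1.35 ± 0.57, adjusted p = 0.947). Phf11b, a PHD finger protein, had 232, 366, 329 and 289 in TRaWT and 327, 31.8, 313 and 152 in TRaGS. TRaGS mice 1 and 3 were inside the wild-type range and mouse 2 was far below it, so that the difference of -0.995 ± 0.41 (adjusted p = 0.943) became -0.26 without TRaGS mouse 2. Rtp4, an interferon-induced receptor transporter, had 244, 132, 94.7 and 161 in TRaWT and 211, 5.66, 167 and 119 in TRaGS. Here mouse 2 alone set the direction, since the difference was -1.04 ± 0.56 (adjusted p = 0.947) with it and 0.12 without it.

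Among the sensors of nucleic acid, Dhx58 (LGP2, a RIG-I-like helicase) had 38.8, 69.3, 14.2 and 24.4 normalised counts in the TRaWT CD4 libraries and 67.5, 1.41, 4.10 and 1.15 in the TRaGS libraries. TRaGS mice 2, 3 and 4 were below all wild-type mice and mouse 1 was near the top of their range (-2.30 ± 1.26, adjusted p = 0.947). Dhx58 lies 1.93 Mb from Thra on chromosome 11 and Ifi35 2.68 Mb from it, while the other list members on that chromosome lie 9.72 to 49.87 Mb away. A part of variants linked to the altered Thra allele in these differences was not tested. Ifih1 (MDA5), Eif2ak2 (PKR) and Zbp1, which sense viral RNA or Z-form nucleic acid, differed by -0.42 ± 0.54, -0.43 ± 0.75 and 0.07 ± 0.63 with overlapping genotypes.

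The IFIT proteins, which bind foreign RNA, were all on the negative side in CD4 cells, from -0.29 ± 0.50 for Ifit1 to -1.57 ± 0.91 for Ifit3. Ifit2 stood at 129 ± 21.9 against 83.4 ± 67.1 normalised counts (SD, n = 4), and Ifit3 at 73.2 ± 37.3 against 26.8 ± 17.2. Bst2 (tetherin), which holds budding virions, stood at 55.1 ± 26.8 against 22.4 ± 27.6 (-1.84 ± 1.05). None of these passed the test. The transcription factors that carry the signal differed by 0.02 ± 0.62 (Irf7), -0.18 ± 0.61 (Stat2) and -0.38 ± 0.31 (Irf9). Among the genes with high counts, Ifi203 had 2512, 2314, 2245 and 1934 in TRaWT and 2005, 3153, 2005 and 2350 in TRaGS. These values overlapped throughout (0.06 ± 0.19), and the sign turned with the scaling and with single libraries. Oasl1, an OAS-like protein that restrains IRF7 translation, was the only gene at a log2 difference of 1 or more (1.09 ± 1.40). It had 0.807 to 7.62 normalised counts in TRaWT and 1.96 to 23.6 in TRaGS. At -1 or less were 13 of the 48 genes. Over all 10426 genes tested, 1512 were at -1 or less and 1062 at 1 or more.

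The 9 GTPase or antigen-processing genes were all on the negative side in CD4 cells, with a smaller median (-0.25) than the 39 type I-like genes (-0.42, 31 negative). Among targets outside the list, given below, the GTPase genes had the more negative median (-0.74, beside -0.19 for type I-like genes). None of the 9 was called, at an unadjusted p under 0.05, or without overlap. Psmb9, a catalytic subunit of the immunoproteasome, had 315, 425, 376 and 234 normalised counts in TRaWT and 268, 305, 195 and 120 in TRaGS. TRaGS mice 3 and 4 were below every wild-type mouse, and mice 1 and 2 were inside the range (-0.65 ± 0.38, adjusted p = 0.947, and -0.39 without TRaGS mouse 4). Gbp7, a guanylate-binding protein of cell-autonomous defence and the gene of its class with the highest mean count, had 997, 787, 883 and 928 in TRaWT and 750, 626, 619 and 810 in TRaGS. Only TRaGS mouse 4 reached into the wild-type range (-0.36 ± 0.26, adjusted p = 0.947). Irgm1, an immunity-related GTPase that regulates others of its family, had 128, 132, 21.8 and 43.9 in TRaWT and 86.0, 37.5, 12.3 and 20.6 in TRaGS. Both genotypes spread widely and overlapped (-1.05 ± 0.84, adjusted p = 0.947, and -0.63 without TRaGS mouse 3). The other 6 differed by -0.26 (Gbp2) to -0.10 (Psmb8).

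**Figure D1:**
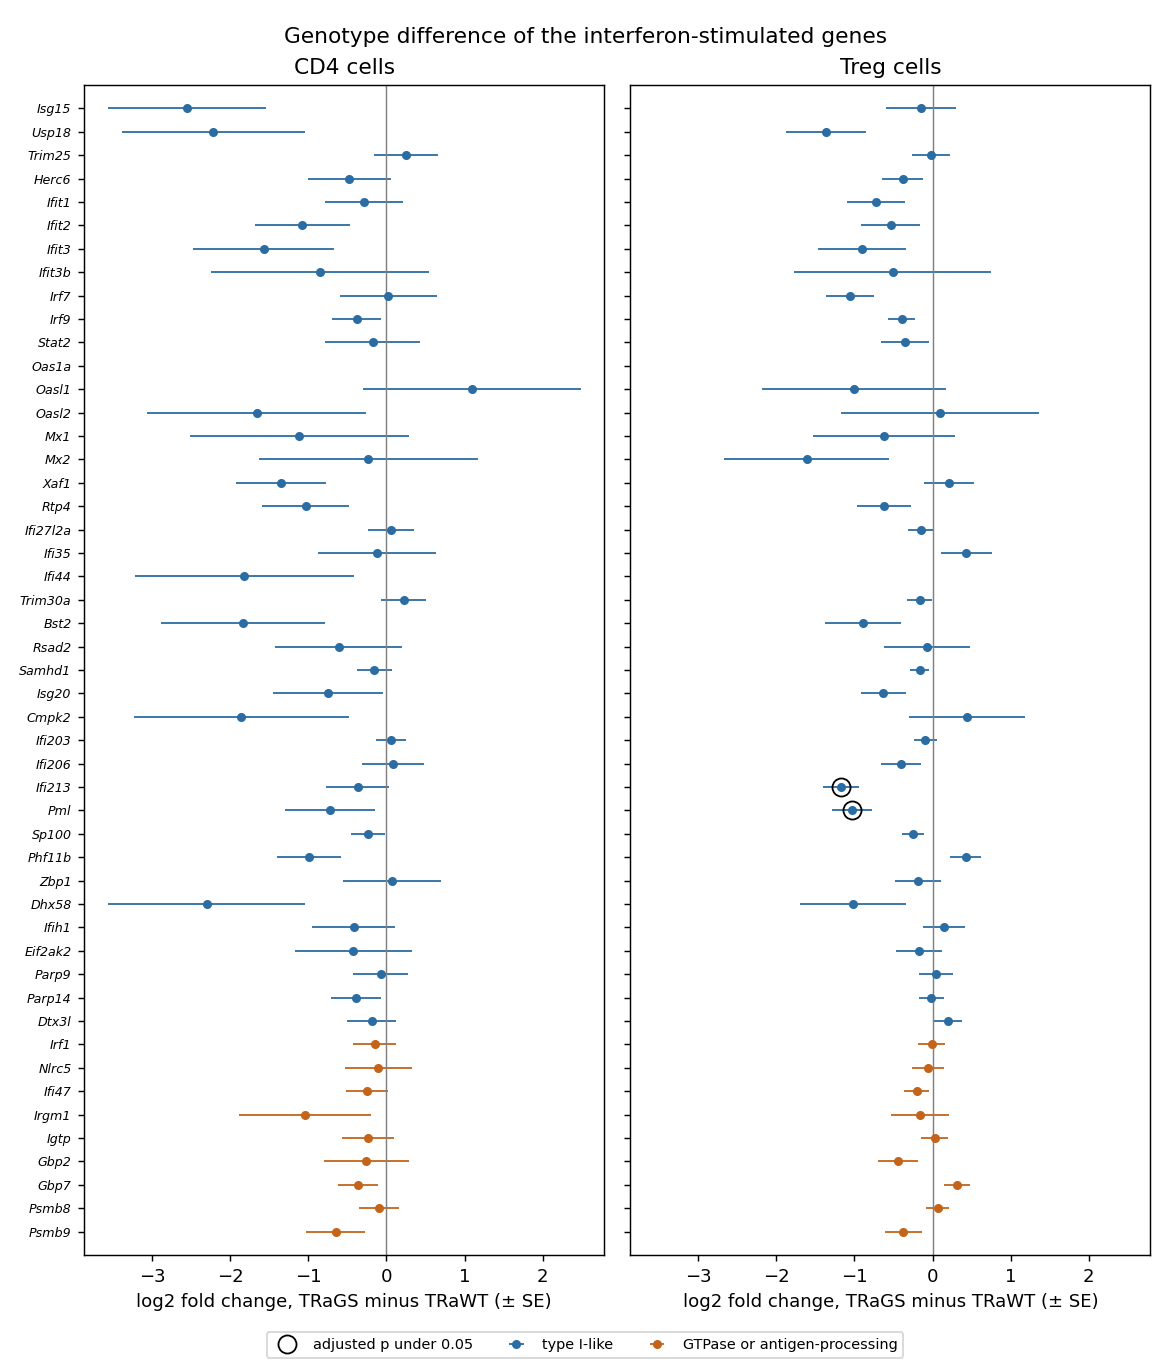
Log2 difference TRaGS minus TRaWT of each listed gene (rows) in CD4 cells (left) and Treg (right), on the same horizontal axis; points are limma estimates, bars 1 SE, blue the type I-like and orange the GTPase or antigen-processing genes, and rings mark an adjusted p under 0.05. Most points lie left of 0 in both panels (40 of 48 and 36 of 47), and rings stand on Ifi213 and Pml in Treg only; rows without a point were below the filter.

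In Treg 2 of the genes fell in TRaGS mice, Ifi213 and Pml. Both called genes were type I-like, 2 of 47 tested, where 0.959% of all genes were called, 0.226% lower and 0.733% higher. Ifi213 (chromosome 1, 173566283 to 173599274), the PYHIN gene whose promoter is printed above, had 385, 246, 391 and 316 normalised counts in TRaWT and 110, 159, 171 and 148 in TRaGS. Every TRaGS mouse lay below every wild-type mouse, 334 ± 67.8 against 147 ± 26.1 (SD, n = 4), and the difference was -1.17 ± 0.23 (limma adjusted p = 0.00279). It stayed called when any 1 library was left out. In CD4 cells the same gene overlapped between genotypes, with 349, 173, 366 and 179 against 105, 416, 221 and 148 (-0.37 ± 0.40). Ifi213 belongs to a cluster of related genes, and reads of near-identical 3′ ends may be split between them.

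Pml (chromosome 9, 58218076 to 58249786), which builds the nuclear bodies that bear its name and is induced by interferon, had 201, 229, 271 and 268 normalised counts in the TRaWT Treg libraries and 152, 124, 78.1 and 126 in the TRaGS libraries. The genotypes did not overlap, 242 ± 33.4 against 120 ± 30.7 (SD, n = 4), with a difference of -1.03 ± 0.25 (limma adjusted p = 0.0251). Its call ended when TRaWT mouse 2, 3 or 4 or TRaGS mouse 3 or 4 was left out (adjusted p 0.0559 to 0.175). Without a variance trend neither gene was called (adjusted p = 0.236 for Ifi213 and 0.317 for Pml). Sp100, another constituent of the nuclear bodies, stood at 1144 ± 71.3 against 961 ± 75.3 without overlap, and did not pass (-0.25 ± 0.14, adjusted p = 0.622).

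Over the whole list in Treg, 36 of 47 differences were negative, against 49.5% of all genes, with a median of -0.18 beside 0.01. At an unadjusted p under 0.05, 6 genes were lower and 1 higher (Phf11b), where 4.2% of all genes were lower and 4.92% higher. Lower without overlap were 6 of 47 (Irf7, Usp18, Ifi213, Pml, Bst2 and Sp100) and higher without overlap 0, where 2.23% and 2.84% of all genes were.

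Of the transcription factors, Irf7, the factor that amplifies type I interferon production, had 145, 117, 180 and 155 normalised counts in TRaWT Treg and 78.1, 51.3, 87.0 and 70.7 in TRaGS. All TRaGS mice were below all wild-type mice, yet the difference of -1.05 ± 0.31 missed the threshold (limma adjusted p = 0.101); DESeq2 on the recovered reads called it (adjusted p = 0.0278). Irf9, which binds DNA together with STAT2, had 471, 543, 617 and 607 in TRaWT and 436, 409, 358 and 505 in TRaGS. Only TRaGS mouse 4 was above the lowest wild-type mouse (-0.39 ± 0.17, adjusted p = 0.460). Stat2 differed by -0.35 ± 0.30 with overlap.

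Usp18 was without overlap in Treg as in CD4 cells, with 66.6, 46.3, 53.6 and 78.6 normalised counts in TRaWT and 29.1, 18.1, 41.3 and 11.96 in TRaGS. The difference was -1.37 ± 0.51 (adjusted p = 0.331). Isg15, in contrast to CD4 cells, had 74.8, 43.3, 71.1 and 34.0 in TRaWT and 29.1, 67.2, 62.5 and 42.4 in TRaGS Treg, which overlapped almost fully (-0.15 ± 0.44). Bst2 stood at 53.9 ± 1.08 against 30.8 ± 12.7 without overlap (-0.89 ± 0.49, adjusted p = 0.616).

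Isg20, an exonuclease of single-stranded RNA, had 314, 143, 160 and 133 normalised counts in TRaWT and 93.8, 150, 90.3 and 128 in TRaGS. TRaWT mouse 1 stood far above the rest, and the difference of -0.63 ± 0.28 (adjusted p = 0.478) was -0.35 without it. Phf11b had 368, 344, 244 and 246 in TRaWT and 396, 406, 334 and 459 in TRaGS, mostly above the wild-type mice (0.42 ± 0.20, adjusted p = 0.502). The IFIT genes were again all negative, from -0.51 ± 1.26 (Ifit3b) to -0.90 ± 0.57 (Ifit3). Ifi203 and Ifi206, which share the ISRE core of Ifi213, differed by -0.09 ± 0.14 and -0.40 ± 0.26, and in Ifi203 TRaWT mouse 1 was the highest of 4026, 2721, 2748 and 2494 beside 2345, 3786, 2435 and 2683 in TRaGS.

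The GTPase or antigen-processing genes were divided in Treg, with 6 of 9 negative and a median of -0.06, beside 30 of 38 and -0.30 for the type I-like genes. Gbp7 had 2573, 1372, 1676 and 1599 normalised counts in TRaWT and 1840, 3354, 1894 and 1924 in TRaGS. Except for TRaWT mouse 1 the TRaGS values lay above the wild-type values (0.31 ± 0.16, adjusted p = 0.584). The difference was 0.50 without TRaWT mouse 1, 0.19 without TRaWT mouse 2 and 0.10 without TRaGS mouse 2. Gbp2 had 230, 178, 183 and 218 in TRaWT and 183, 105, 115 and 216 in TRaGS, with mice 2 and 3 lowest (-0.44 ± 0.26, adjusted p = 0.639, and -0.28 without TRaGS mouse 2). Psmb9 had 266, 255, 390 and 198 in TRaWT and 185, 327, 160 and 190 in TRaGS and overlapped (-0.38 ± 0.24, adjusted p = 0.684, with -0.20 without TRaWT mouse 3 and -0.59 without TRaGS mouse 2). Its partner Psmb8 and the regulators Irf1 and Nlrc5, the latter an activator of MHC class I genes, differed by 0.06 ± 0.15, -0.01 ± 0.17 and -0.06 ± 0.20.

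**Figure D2:**
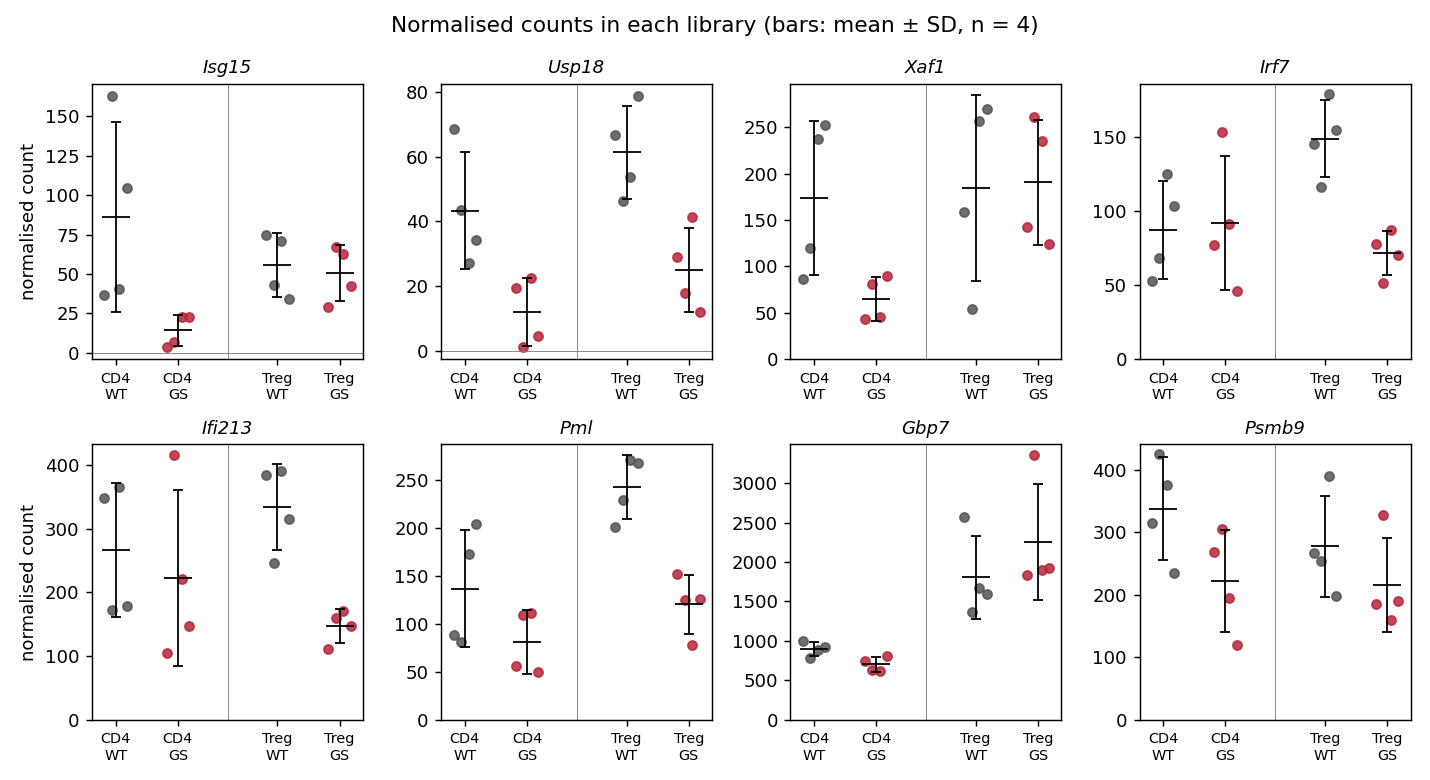
Normalised counts (vertical axes, linear) of 8 genes in each library; grey points are the TRaWT and red points the TRaGS mice, horizontal lines the mean and bars the SD (n = 4), with CD4 left and Treg right of each vertical line. The 2 tables were normalised separately. Isg15 and Usp18 in CD4 and Usp18, Irf7, Ifi213 and Pml in Treg show TRaGS points wholly below the TRaWT points.

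Class by class and mouse by mouse, the lean of the type I-like genes was present in each TRaGS CD4 library. The mean deviation of the 39 type I-like genes from their TRaWT means, on the log2 scale, was 0.26, -0.17, -0.11 and 0.02 in TRaWT mice 1 to 4 and -0.54, -1.19, -0.42 and -0.57 in TRaGS mice 1 to 4. The genotypes did not overlap in this summary. It weighs genes with low counts as much as the others, and it was not made over all genes tested. Medians over the 39 genes came close to each other, at -0.18 in TRaGS mouse 3 and -0.15 in TRaWT mouse 2. TRaGS mouse 2 was lowest of the 8 libraries for 16 of the 39 genes and highest for 6, so it was extreme in both directions. TRaGS mouse 3 was lowest for 1 and highest for 3. Such counts were not taken over all genes tested. For the 9 GTPase or antigen-processing genes the deviations were 0.13, 0.14, -0.10 and -0.18 in TRaWT and -0.29, -0.09, -0.52 and -0.51 in TRaGS, with TRaGS mouse 2 inside the wild-type range. The mouse with the lowest type I-like mean thus had the highest mean of the other class among TRaGS mice.

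In Treg the type I-like deviations were 0.44, -0.22, -0.21 and -0.01 in TRaWT and -0.48, -0.40, -0.16 and -0.50 in TRaGS, where TRaGS mouse 3 lay above the 2 lowest wild-type mice. For the other class they were 0.00, -0.01, 0.15 and -0.15 in TRaWT and -0.21, 0.06, -0.22 and 0.00 in TRaGS, within or close to the wild-type range. TRaWT mouse 1 carried part of the Treg pattern. It was the highest library for 17 of the 47 genes in Treg and for 14 of the same 47 in CD4. For 9 it was the highest in both subsets, among them Ifit1, Ifit3, Oasl2, Mx1, Rtp4 and Isg20, where any other mouse was so for 0 to 2. Without it, 28 of 46 genes were negative in Treg, and the type I-like median moved from -0.30 to -0.16 and that of the other class from -0.06 to -0.19, so that the order of the classes turned. In CD4 leaving out 1 library gave 36 to 42 negative genes, and the median over the list moved to -0.25 without TRaGS mouse 1. The difference between the classes is a description and was not tested.

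**Figure D3:**
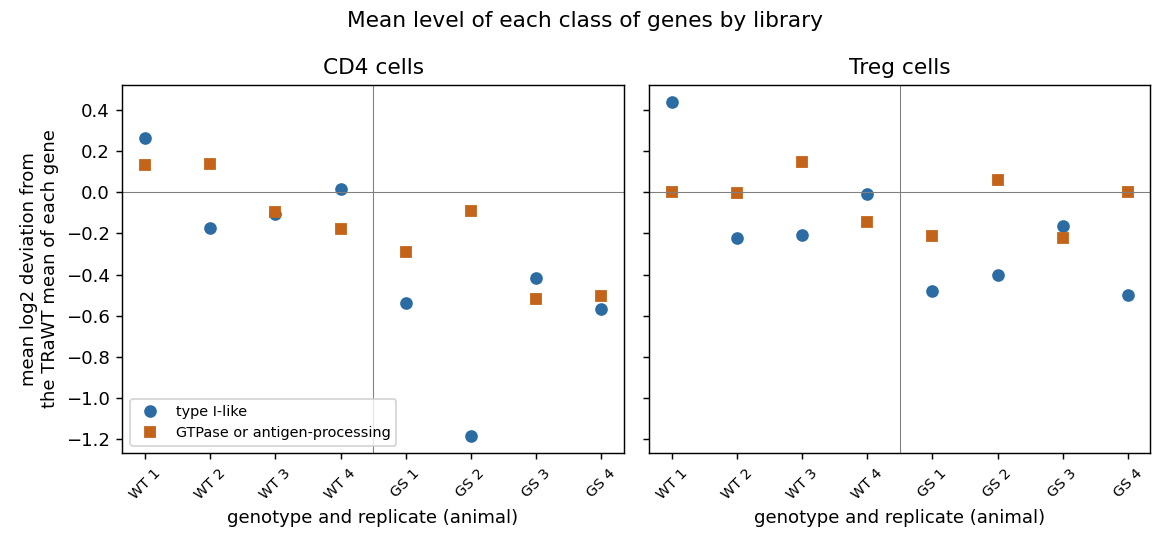
Mean log2 deviation from each gene's TRaWT mean (vertical axis) in each mouse (horizontal axis) for the type I-like genes (blue circles) and the GTPase or antigen-processing genes (orange squares) in CD4 cells (left) and Treg (right); each point is a mean over the genes of a class in 1 library. In CD4 the TRaGS circles run from -1.19 to -0.42, below all TRaWT circles, while the squares overlap; in Treg both classes overlap between genotypes.

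**Figure D4:**
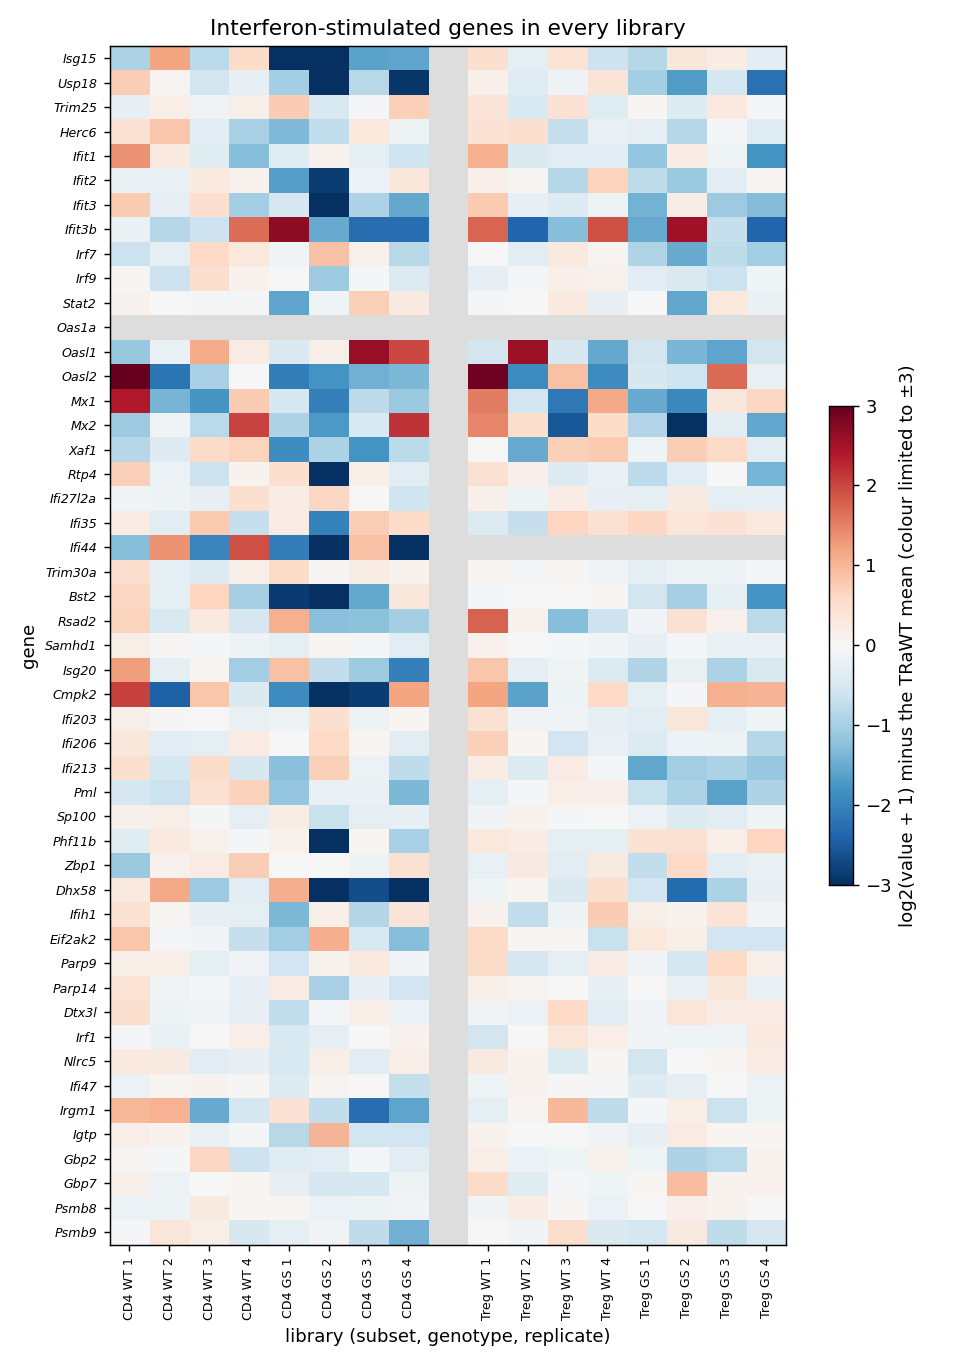
Log2(value + 1) minus the TRaWT mean of the subset for each gene (rows) in each of the 16 libraries (columns, CD4 left and Treg right); red is above and blue below that mean, colours stop at 3 in either direction, and grey marks genes below the filter. Blue is spread over many genes of the TRaGS CD4 columns, above all in TRaGS mouse 2, and the TRaWT mouse 1 columns are red for Oasl2, Mx1, Isg20 and Cmpk2 in both subsets.

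Between the subsets, 28 of the 47 genes tested in both had a negative difference in each, 11 in CD4 only and 8 in Treg only, and 0 were positive in both. Whether the genotype difference itself differed between the subsets was tested with limma on each mouse's Treg minus CD4 difference. The difference was negative for 17 of the 47, against 49.4% of all genes. By this test 0 of the 47 were called, where 0.171% of 9914 genes were, and at an unadjusted p under 0.05 there were 4, all with the value in Treg above that in CD4, where 3.51% of all genes were so and 3.11% had the opposite sign. These were Phf11b (1.42 ± 0.45, adjusted p = 0.292), Gbp7 (0.67 ± 0.24, adjusted p = 0.451), Xaf1 (1.56 ± 0.58, adjusted p = 0.523) and Isg15 (2.41 ± 1.06, adjusted p = 0.682). For Ifi213, called in Treg only, the difference between subsets was -0.81 ± 0.45 (adjusted p = 0.779). Neither the calls in Treg nor the larger Isg15 value in CD4 was thus shown to be particular to a subset.

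Levels in the subsets were set side by side in rpm, the recovered reads scaled to 1 fixed total per library, with no test, since the tables were normalised apart. A single gene, Gm42418, held 27.1% to 41.1% of the reads in TRaWT CD4 libraries and 24.2% to 33.0% in TRaWT Treg libraries. Its part in the rpm values was not tested. In wild-type mice 5 of 49 genes stood higher in all Treg than in all CD4 libraries, where 6.81% of 9914 genes did. Lower stood 0, where 2.59% of the 9914 did. The 9914 genes passed the filter in both subsets, which Oas1a and Ifi44 did not. The 5 higher genes were Samhd1, Gbp7, Ifi27l2a, Stat2 and Pml. Samhd1, a nucleotide hydrolase that limits viral replication, stood at 693 to 886 in Treg and 349 to 508 in CD4. Gbp7 stood at 452 to 806 and 257 to 335, and Pml at 62.8 to 79.7 and 26.4 to 58.2. In TRaGS mice 9 of 49 stood higher in all Treg than in all CD4 libraries, where 9.84% of genes did. Gbp7 and Samhd1 were in both sets, and Pml overlapped between the subsets in TRaGS mice.

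The wider interferon pathway was read from 131 further symbols, some of them older and newer names of a single gene, of which 96 were tested in CD4 and 95 in Treg. By limma 0 of them were called in either subset. At an unadjusted p under 0.05, 9 were lower and 0 higher in CD4, where 2.47% and 2.7% of all genes were. In Treg 10 were lower and 4 higher, where 4.2% and 4.92% of all genes were, so that the higher genes were at the background. The ligands were nearly absent: 17 of 18 interferon genes were listed at 0 in every library, and Ifng, the gene of interferon gamma, stood at 9.92 ± 15.5 (TRaWT) and 7.64 ± 8.93 (TRaGS) normalised counts in CD4 and 3.77 ± 6.89 and 12.4 ± 7.73 in Treg (SD, n = 4). Of the receptor and kinase genes in CD4, Ifnar1 differed by -0.05 ± 0.51, Ifnar2 by 0.09 ± 0.54, Ifngr1 by 0.05 ± 0.32, Ifngr2 by -0.58 ± 0.71 and Jak1 by 0.06 ± 0.18. The means of Ifngr2 went the other way, 81.0 ± 32.8 in TRaWT and 99.5 ± 101 in TRaGS (SD, n = 4). With these SEs the receptor genes were not shown to be alike between genotypes. In Treg, Ifngr1, the ligand-binding chain for interferon gamma, stood at 466 ± 31.1 against 605 ± 62.0 normalised counts without overlap and did not pass (0.37 ± 0.16, adjusted p = 0.460). There Ifnar1 differed by 0.10 ± 0.22, Ifnar2 by -0.07 ± 0.29, Ifngr2 by 0.73 ± 0.45 and Jak1 by -0.22 ± 0.12.

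Of the other targets, 24 of 42 type I-like genes were negative in CD4 (median -0.19) and 34 of 41 in Treg (median -0.25). The GTPase targets outside the list were negative for 10 of 11 in CD4 (median -0.74) and 6 of 11 in Treg (median -0.03). In CD4 the order of these medians was the reverse of that of the listed classes. The genes with the smallest p there, chosen after their values were seen, were Gbp9 and Gbp8 in CD4. Gbp9 stood at 277 ± 57.1 against 111 ± 32.2 normalised counts (-1.34 ± 0.45, adjusted p = 0.771) and Gbp8 at 278 ± 70.9 against 113 ± 43.1 (-1.33 ± 0.45, adjusted p = 0.788). Other antigen-processing genes were negative for 9 of 16 in CD4 (median -0.07) and 6 of 17 in Treg (median 0.08). Members of the Gbp, Ifi200, Phf11, Oas, Trim30 and Ifit3 families share sequence, and their single values are uncertain where the counting could split reads.

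Markers of other cells were summed per library from the same tables. In Treg the 8 B cell markers, all detected and led by Ighm, summed to 862 to 1253 normalised counts in TRaWT and 1432 to 2038 in TRaGS (two-sided exact permutation p = 0.0286, the smallest that 4 against 4 allows, and 0.381 adjusted over the lists). The 5 Treg markers, led by Ikzf2, summed to 7177 ± 501 against 8795 ± 779 in Treg and 792 ± 127 against 1075 ± 164 in CD4 (SD, n = 4, exact permutation p = 0.0571 in each, 0.381 adjusted). The markers did not move together. In Treg the means of Ikzf2 (3751 in TRaWT, 5466 in TRaGS), Tnfrsf18 (518, 765) and Ctla4 (243, 266) were higher in TRaGS. Foxp3 was alike there (1165, 1156) and Il2ra lower (1500, 1141). In CD4 only Il2ra was lower (104, 95.0). For the lists of CD4 and CD8 T cells, NK cells, plasma cells, macrophages or dendritic cells, neutrophils and erythroid cells the exact permutation p was 0.257 or more in each subset. Plasmacytoid dendritic cells, the main producers of type I interferon, were read from 6 markers. Of these Klk1 and Cox6a2 were at 0, and Bst2 is itself on the gene list. The CD4 sum was 232 ± 78.9 in TRaWT and 170 ± 27.6 in TRaGS, and the Treg sum 245 ± 28.3 and 252 ± 28.5. These sums hide opposite directions. In CD4 the means of Ccr9 (146 in TRaWT, 112 in TRaGS), Bst2 (55.1, 22.4) and Runx2 (26.2, 22.7) were lower in TRaGS, and Siglech (4.36, 13.2) was higher. In Treg Ccr9 (170, 141) and Bst2 (53.9, 30.8) were lower and Runx2 (20.5, 79.6) higher, with Siglech at most 1.66. The part of these shifts in the values above was not tested. In such bulk samples fewer cells that express a gene and less RNA per cell cannot be told apart.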

How the data were processed

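Libraries of splenic CD4 and Treg cells from 4 TRaWT and 4 TRaGS mice were made with a 3′ mRNA kit read in the forward direction, per the labels' protocols. No molecular identifiers are named, so reads may include copies of a molecule. The build is GRCm38, per the submitters' processing notes. How reads were aligned and counted is not given in the sources used here. Deposited values, a signal unit, are read counts that the authors divided by 1 factor per library, separately for each table. They were whole multiples of 1 step per library within 0.001, which gave back the reads.

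Symbols matched 47224 of 47643 identifiers, and gene coordinates are from GENCODE on GRCm38. Genes with a mean of at least 5 were fitted with limma 3.58.1 (R 4.3.3) on log2(value + 1) with a variance trend, and p was adjusted over all genes at 0.05. The prior degrees of freedom were infinite in CD4 and 36.8 in Treg. The fit understates changes of low genes. Each mouse gave 1 library per subset. In Treg p weighs a gene's own spread between mice together with the trend, and in CD4 it uses the trend alone. The same animal number in the titles pairs the subsets. For the difference between subsets the trend was taken on mean expression over both subsets. The fits were tested on simulated data.

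The genes, classes and lists were chosen with earlier results of these data known. Values per library are given for called genes, for the 6 type I-like and 3 other genes with the smallest p in each subset and for the gene of each class with the highest mean. Means of fixed receptor and signalling genes are given too, 1 of which is not reported here. Results were recomputed with a pseudocount of 0.5 or 5, with a minimum mean of 20 or none, with upper-quartile scaling or quantile normalisation, with edgeR 4.0.16 and DESeq2 1.42.0 fitted to the recovered reads, without a variance trend, with array weights, with a block for the replicate number, without each library in turn, and with TRaGS mice 1 and 2 alone, whose animal numbers are nearest to those of the wild-type mice. Counts without each library, levels in rpm and a variance trend on the mean difference were chosen after seeing the data. matplotlib 3.10.9 drew the figures.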

Additional observations from a re-analysis of the deposited data

Results flagged for a closer look

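In 72 groups of 4 libraries, 5 held a library far from the other 3 (Dixon's test); chance flags about 1 in 20 groups. Dhx58, the LGP2 helicase, had 67.5 normalised counts in the CD4 library of TRaGS mouse 1 and 1.15 to 4.10 in the other TRaGS mice. Gbp2 had 118 in the CD4 library of TRaGS mouse 3 and 93.9 to 96.9 in the others, a small gap. Gbp7 had 3354 in the Treg library of TRaGS mouse 2 and 1840 to 1924 in the others. In Treg of TRaWT mouse 1, Ifi203 had 4026 against 2494 to 2748 and Isg20 had 314 against 133 to 160.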

How the results depend on the processing

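Over the genes that the rule for named genes picked within each subset (10 in each), 383 comparisons with an alternative kept direction and side of the threshold, 9 lost the call, 1 gained it and 7 turned sign. The cause was not tested for any of these. Ifi213 in Treg lost its call without a variance trend only (adjusted p 9.56e-05 to 0.236 over 20 alternatives), and Pml lost it in 8 of 20: no filter (0.0537), no variance trend (0.317), TRaGS mice 1 and 2 alone (0.410), and 5 of the 8 single libraries left out (0.0559 to 0.175). Signs turned for Ifi203 in CD4 (-0.049 with upper-quartile scaling, -0.071 with quantile normalisation, and -0.084 to 0.13 with a library left out, negative without TRaWT mouse 4 or TRaGS mouse 2), for Rtp4 in CD4 (-1.55 to 0.12 with a library left out, positive without TRaGS mouse 2) and for Ifi203 in Treg (0.018 with TRaGS mice 1 and 2 alone, and -0.25 to 0.057 with a library left out, positive without TRaWT mouse 1).

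Listed genes called in Treg were 2, 1 without the filter, 0 without a variance trend, 1 with TRaGS mice 1 and 2 alone, and 1 to 2 with a library left out. Pathway genes outside the list called in Treg were 0, and 1 with DESeq2 (Ifit1bl1) and 1 with array weights (Ifi208). All genes called in CD4 were 6, and 1 without the filter, 3 with edgeR, 10 with DESeq2, 0 without a variance trend, 27 with TRaGS mice 1 and 2 alone and 3 to 9 with a library left out. In Treg they were 106, and 62, 42 and 0 without the filter, with TRaGS mice 1 and 2 alone and without a variance trend, and 56 to 108 with a library left out. For the difference between subsets they were 17, and 1 without the filter, 0 without a variance trend, 0 with the trend on the mean difference, 3 with no replicate block and 10 to 27 with a mouse left out. The GTPase or antigen-processing median in Treg ran from -0.19 (without TRaWT mouse 1) to 0.026 (without TRaWT mouse 3). Upper-quartile scaling moved the median of all genes in CD4 from -0.01 to -0.12 and that of the listed genes to -0.48.

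Replicate numbers do not pair mice of different genotype, since the titles give them different animal numbers. Correlations of same-numbered libraries across genotypes were -0.02 to 0.05. Those of the same animal across subsets were -0.005 to 0.06, so the correlations cannot tell a true pair from a false one. With the number as a block 4 genes were called in CD4 and 112 in Treg, and 0 and 2 of the listed genes, with no change of call among them.

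Genes with low counts, such as Ifit3b, Mx1, Mx2, Oasl1 and Oasl2, had SEs of 0.91 to 1.40, too wide to show a difference of the size seen in Ifi213; the parts of depth and of the spread between mice in this were not tested.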
